A study of Mus musculus with 10 samples.

Results

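The mitochondrial ribosome is the machine inside mitochondria that translates the few messenger RNAs of the mitochondrial genome, all of which encode subunits of the respiratory chain and ATP synthase. Its ribosomal RNAs come from the mitochondrial genome, whereas its proteins are encoded in the nucleus, made in the cytosol and imported. The retina, and its photoreceptors above all, is rich in mitochondria. The genes described here are the protein-coding rows of the count table whose symbol starts with Mrpl or Mrps followed by a number, for large and small subunit. There were 77 such genes among 35275 rows, 22026 of them protein-coding, with 48 in the large subunit and 29 in the small subunit. The names do not follow the structure everywhere. In solved mammalian mitochondrial ribosomes the products of Mrps30 and Mrps18a sit in the large subunit, and Mrps36 is now assigned to the 2-oxoglutarate dehydrogenase complex. Proteins of the ribosome with other names (Dap3, Ptcd3, Chchd1, Aurkaip1, Gadd45gip1 and Ict1) are given separately.

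Retinas of C57BL/6 mice aged 10 to 12 weeks were sequenced in 10 libraries, 5 with the treatment label vehicle and 5 with the label vigabatrin, a drug delivered at 140 mg/kg/day over 11 days by subcutaneous osmotic pump. Used against epilepsy, vigabatrin blocks GABA transaminase irreversibly and can narrow the visual field of patients. The control titles say untreated where the treatment label says vehicle, and no genotype beyond the strain is given. Libraries carry the number of their title: vehicle 832, 835, 1580, 1582 and 2345, and vigabatrin 2344, 2347, 2349, 2428 and 2429. Nothing states that each library is a separate animal, and the p-values therefore reflect variation among libraries, which may be technical.

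Totals ran from 36056135 to 54052502 counts per library. Markers of rod photoreceptors summed to between 52886 and 59121 CPM (counts scaled to the library's size) in every library, with none of the 8 at 0, as the label retina implies. Lens markers ranged from 28.7 to 15418 CPM in vehicle and from 3.76 to 15912 CPM after vigabatrin, with vehicle 835 and 1582 and vigabatrin 2344 and 2429 the high libraries. Of 13 rows with the names of lens markers, 10 could be tested, all 10 had a higher mean after vigabatrin, and 2 rows named Lim2 were at 0 in every library. Markers of pigment epithelium and choroid ranged from 27.4 to 1671 CPM in vehicle and from 12.5 to 747 CPM after vigabatrin, with 9 of 10 lower in mean after vigabatrin and none at 0. In bulk retina, fewer cells of a type and less RNA per cell cannot be told apart.

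Nearly all of the mitochondrial ribosomal protein genes were measured at a moderate level. Of the 77, 76 passed the filter on low counts, and their lowest count in any library was 175. The exception was Mrpl53, on chromosome 6 from 83109095 to 83109939 (mm10), with 0 counts in every library. A count of 0 allows up to 3 counts per library. In GENCODE M21, 88.0% of the exon bases of Mrpl53 are shared with Gm42688 or Ccdc142os, and the sources used here do not say how the authors' counting treated shared bases, so this 0 cannot be read as absence of the transcript.

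Levels between genes are compared as CPM per kilobase of the deposited gene length. The median of the 76 tested members was 11.1 CPM per kilobase, beside 5.88 over all 17435 genes tested, 44.7 for the nuclear subunits of respiratory complex I and 133 for the cytosolic ribosomal proteins. The 10th and 90th percentiles of the members were 3.83 and 27.4 CPM per kilobase. They were 14.1 and 80.4 for complex I and 0.337 and 35.5 over all genes tested. Large-subunit members had a median of 12.4 and small-subunit members of 9.52 CPM per kilobase.

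**Figure D1:**
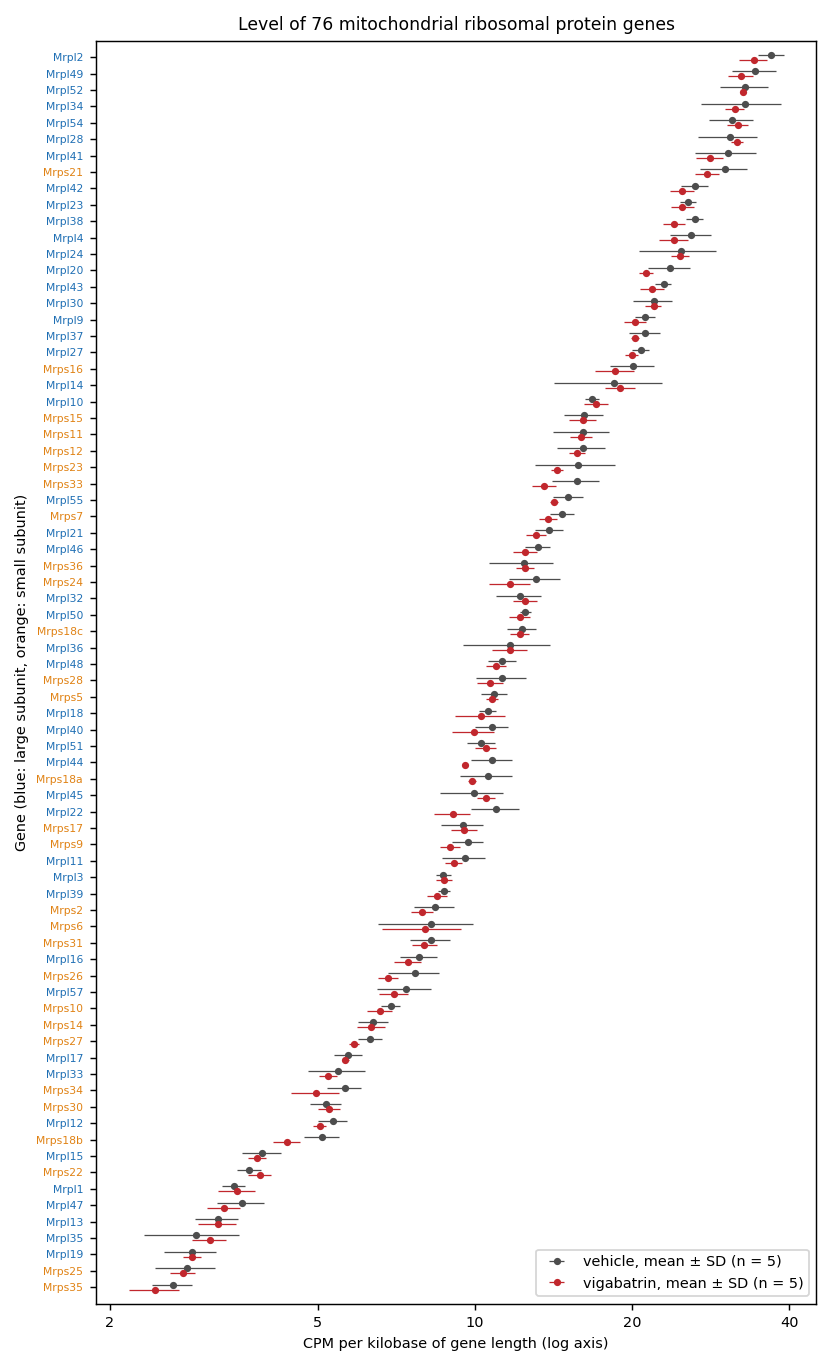
Level of each of the 76 tested mitochondrial ribosomal protein genes in CPM per kilobase of gene length (log axis), with the mean and SD of 5 vehicle (grey) and 5 vigabatrin (red) libraries; gene names are blue for the large and orange for the small subunit. Levels run from 2.54 (Mrps35) to 35.6 (Mrpl2), and for most genes the bars of both groups overlap.

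The highest level belonged to Mrpl2, a protein of the peptidyl transferase region, with 37.0 ± 2.06 CPM per kilobase in vehicle (SD, n = 5) and 34.2 ± 2.17 after vigabatrin (SD, n = 5). Mrpl49 followed at 33.4, Mrpl52 at 32.9, Mrpl34 at 32.2 and Mrpl54 at 31.5 CPM per kilobase over all libraries, and these neighbours in the order lay closer to each other than the SD of Mrpl49 within vehicle, 3.3. All 5 are large-subunit genes, and Mrpl52, Mrpl34 and Mrpl54 have short deposited lengths of 412, 645 and 604 bases. At the other end stood Mrps35 with 2.54, Mrps25 with 2.79, Mrpl19 with 2.87, Mrpl35 with 3.02 and Mrpl13 with 3.22 CPM per kilobase. Neighbours in this order again lay closer together than the SD of Mrpl35 within vehicle, 0.601. The deposited lengths of these genes are long, 4607, 6073, 5000, 3715 and 6008 bases, beside a median of 1408 over the members. Not divided by length, they had 12.2, 17.1, 14.3, 10.9 and 19.3 CPM in vehicle, beside a member median of 16.9 CPM over all libraries. Their low place therefore partly reflects the length used. Mrps25 shares 69.8% of its exon bases with Nr2c2 on the other strand and Mrps34 shares 77.8% with Mapk8ip3 and Nme3, so the counts of these 2 genes are uncertain. Sharing of any exon base affected 28 of 76 members with a GENCODE entry (36.8%), beside 28.1% of tested protein-coding genes.

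Members with lower and with higher numbers in their symbols had like levels. Those numbered up to Mrpl36 and Mrps21 had a median of 11.3 CPM per kilobase over 44 genes. Those numbered from Mrpl37 and Mrps22 had 11.1 over 32 tested genes. The division used the number alone, and whether each gene has a bacterial counterpart was not checked for it.

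The stalk that recruits translation factors to the large subunit is built from Mrpl10, its base, and Mrpl12, its mobile part. Mrpl10 measured 28.6 ± 0.875 CPM in vehicle and 29.2 ± 1.49 CPM after the drug, and Mrpl12 7.04 ± 0.454 and 6.64 ± 0.195 CPM (SD, n = 5 each). Per kilobase Mrpl10 stood at 16.9 and Mrpl12 at 5.2 CPM. In bacteria the counterpart of Mrpl12 is the one ribosomal protein present in several copies. The 3 paralogs of bacterial protein S18 occupy different sites of the ribosome. Their levels were 12.3 for Mrps18c, 10.2 for Mrps18a and 4.73 CPM per kilobase for Mrps18b.

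The comparison of vigabatrin with vehicle asked which of these transcripts differed after the drug. None of the 76 tested members passed the threshold in either direction (edgeR quasi-likelihood test, Benjamini-Hochberg adjusted p under 0.05 over 17435 genes), beside 1 gene of 17435 called in all (0.00574%). DESeq2 and limma-voom called 0 members too. The smallest adjusted p of a member was 0.555 (Mrpl22), and over the alternatives the smallest ranged from 0.183 to 1.0. At an unadjusted p under 0.05 there were 7 members lower after vigabatrin and 0 higher, beside 3.69% and 3.68% of all genes tested. For no member did the 5 vehicle and 5 vigabatrin libraries fall apart without overlap, a pattern shown by 1.48% of all genes tested.

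The differences were small, and most pointed the same way. The mean was lower after vigabatrin for 60 of 76 members (78.9%), beside 50.6% of all genes tested and 51.8% of the 7982 genes with a mean of 5 to 60 CPM. The median log2 fold change of the members was -0.061, beside -0.001 for all genes, and single members lay between -0.28 (Mrpl22) and 0.087 (Mrpl35). In the large subunit 35 of 47 tested members had a lower mean, with a median of -0.056. In the small subunit it was 25 of 29, with a median of -0.084. Placing Mrps30 and Mrps18a with the large subunit and leaving out Mrps36 gave medians of -0.056 and -0.087, with 24 of 26 small-subunit members lower. All members were read in the same 10 libraries, so counts of genes are not counts of independent observations. Neither the count nor the difference between subunits was tested.

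**Figure D2:**
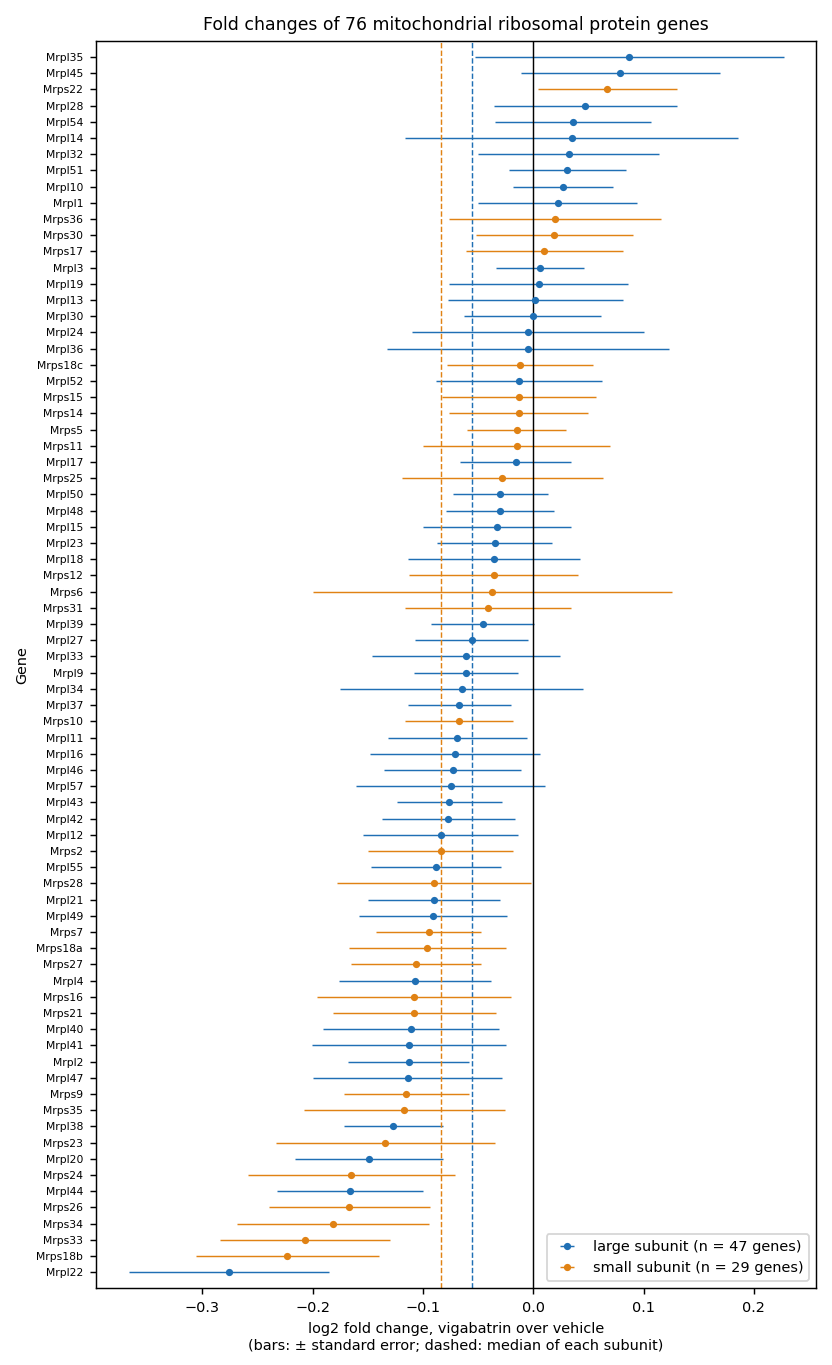
Fitted log2 fold change, vigabatrin over vehicle, of each of the 76 tested genes with its standard error, ordered by size; blue marks the large and orange the small subunit, and dashed lines mark their medians. Most genes lie to the left of 0, between -0.28 and 0.087, and none passed the threshold.

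The member furthest from 0 was Mrpl22 (ENSMUSG00000020514), a large-subunit protein with a bacterial counterpart that lines the exit tunnel, on chromosome 11 from 58171661 to 58179565 on the plus strand of mm10. Its levels were 7.6, 9.16, 8.4, 7.45 and 7.09 CPM in vehicle 832, 835, 1580, 1582 and 2345, and 6.11, 6.53, 6.04, 7.28 and 6.85 CPM in vigabatrin 2344, 2347, 2349, 2428 and 2429. Vigabatrin 2428 alone lay above a vehicle library, the lowest one, 2345. The log2 fold change was -0.28 ± 0.091 (standard error; edgeR quasi-likelihood test, adjusted p = 0.555).

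Mrpl44, which carries a ribonuclease III-like fold, had 14.4, 17.3, 15.7, 15.4 and 13.7 CPM in vehicle in the same order of libraries. After vigabatrin it had 13.8, 13.6, 13.5, 13.7 and 13.7 CPM. The vigabatrin libraries were nearly identical, and vehicle 2345 lay among them. Its log2 fold change was -0.17 ± 0.066 (standard error; edgeR, adjusted p = 0.619).

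Mrpl38, a protein of the central protuberance, measured 36.3, 37.3, 39.4, 37.2 and 35.8 CPM in vehicle and 31.9, 36.3, 34.9, 34.1 and 33.2 CPM after vigabatrin. Only vigabatrin 2347 reached the vehicle range. The log2 fold change was -0.13 ± 0.045 (standard error; edgeR, adjusted p = 0.584). Mrpl20, a bacterial-type protein of the large subunit, went from 19.2 ± 1.77 to 17.3 ± 0.509 CPM (SD, n = 5 each), and its vehicle 2345 value of 16.3 CPM was the lowest of all 10 libraries. Mrpl2, the member of highest level, had a log2 fold change of -0.11 with a standard error of 0.055.

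In the small subunit the 3 members of smallest p were Mrps18b, Mrps33 and Mrps26, of which the last 2 have no bacterial counterpart. Mrps18b had 5.55, 5.6, 5.26, 6.13 and 4.97 CPM in vehicle and 4.42, 4.76, 4.95, 4.43 and 5.0 CPM after vigabatrin. Vehicle 2345 and vigabatrin 2429 were the pair that crossed. Its log2 fold change was -0.22 ± 0.083 (standard error; edgeR, adjusted p = 0.603). The other 2 paralogs differed less: -0.096 for Mrps18a and -0.012 for Mrps18c, with standard errors of 0.071 and 0.066. The value of Mrps18a was -0.024 without vehicle 835, its highest library at 28.0 CPM. In GENCODE M21, 30.5% of the exon bases of Mrps18b are shared with Gm16279 on the other strand.

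Mrps33 measured 18.6, 16.8, 17.5, 19.3 and 14.7 CPM in vehicle and 15, 16.3, 15.2, 15 and 14 CPM after vigabatrin. Here too vehicle 2345 lay inside the vigabatrin range while the other vehicle libraries lay above it. The log2 fold change was -0.21 ± 0.077 (standard error; edgeR, adjusted p = 0.605). Mrps26 had 34.0, 38.1, 32.6, 31.5 and 27.9 CPM in vehicle and 28.3, 31.0, 28.3, 30.2 and 28.4 CPM after vigabatrin. Its vehicle 2345 value was the lowest of all libraries and its vehicle 835 value the highest, and without vehicle 835 the log2 fold change was -0.108 in place of -0.167. Mrps34, which stabilises the small ribosomal RNA, had a log2 fold change of -0.18 (standard error 0.087) and Mrps9 of -0.11 (standard error 0.057).

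Few members had a higher mean after vigabatrin, 12 in the large and 4 in the small subunit. Mrps22, a mitochondria-specific protein of the small subunit, had 13.1, 11.6, 12.6, 11.6 and 12.1 CPM in vehicle and 12.1, 12.5, 13.3, 12.4 and 13.6 CPM after vigabatrin, and the groups overlapped over most of their range. Its log2 fold change was 0.067 ± 0.063. (standard error) Mrpl35 had 11.8, 7.02, 11.7, 11.1 and 12.7 CPM in vehicle and 10.2, 11.7, 12.5, 11.9 and 11.5 CPM after vigabatrin. One library, vehicle 835, held its low value, and without it the log2 fold change was -0.035 in place of 0.087. Mrpl45, which ties the large subunit to the inner membrane, was at 0.079, and -0.005 without vehicle 835. Mrpl28 was at 0.047, and -0.034 without that library. Mrpl14 was at 0.035, and -0.096 without it. Mrpl51 at 0.031 and Mrpl10 at 0.027 kept their direction when any library was left out. For Mrpl10 it turned to -0.015 with the title-number term described below. In the small subunit Mrps36 was at 0.02, Mrps30 at 0.019 and Mrps17 at 0.01, each well under its standard error.

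**Figure D3:**
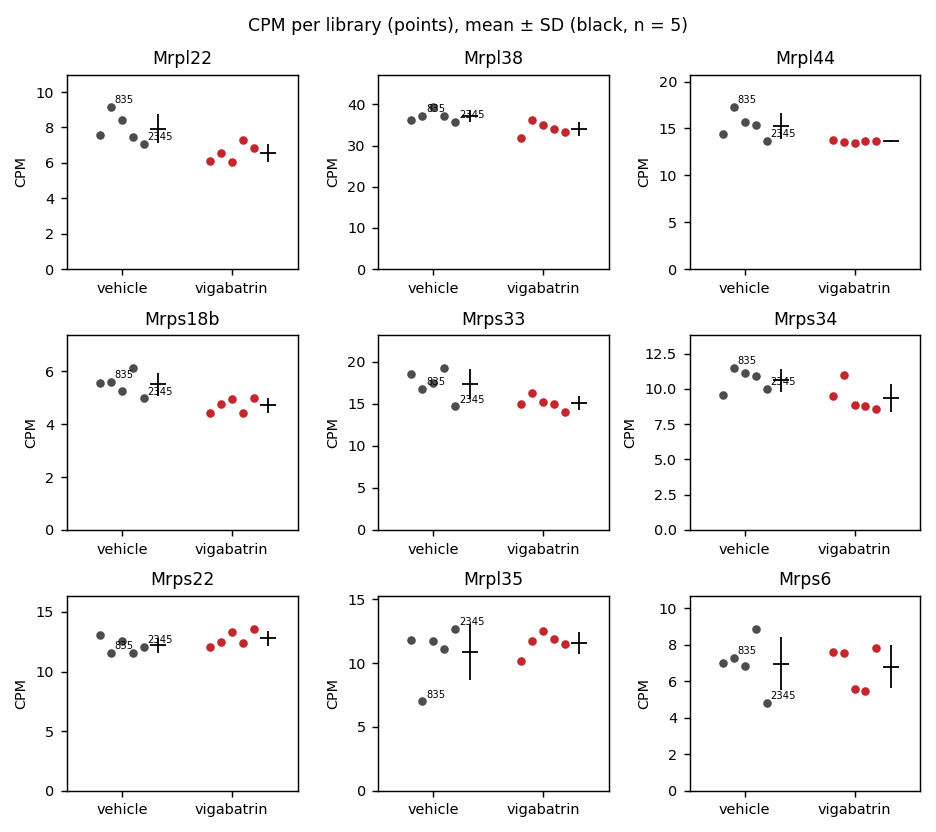
CPM in each library (points) of 9 mitochondrial ribosomal protein genes, with the mean and SD of 5 libraries in black; vehicle 835 and vehicle 2345 are marked. The groups overlap in every panel, and vehicle 835 is the low point of Mrpl35 at 7.02 CPM.

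The spread between libraries was larger in vehicle than after vigabatrin. The mean log2 CPM of the large-subunit members was 4.28 ± 0.0721 in vehicle and 4.24 ± 0.0299 in vigabatrin libraries, and that of the small-subunit members 3.95 ± 0.0661 and 3.88 ± 0.0269 (SD, each n = 5). Summed over the members, vehicle held between 1480 and 1615 CPM and vigabatrin between 1448 and 1529 CPM. Vehicle 1580 had the highest value of 26 members, vehicle 835 of 17 and vehicle 1582 of 15, so these 3 libraries held most of the peaks.

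Vehicle 2345 lay low among the vehicle libraries. Its members deviated from their own means by a median of -0.045 on the log2 scale, within the vigabatrin range of -0.07 to 0.014. Vehicle 835, at 0.008, lay within that range too, and the other 3 vehicle libraries lay above it, at 0.042, 0.087 and 0.063. Vehicle 2345 held the lowest value of 15 members. It is also the one vehicle library with a title number over 2000, as all vigabatrin libraries have. A fit with the range of the title number as a term has vehicle 2345 as its one control for the treatment. In it, the median log2 fold change of the members was 0.028 and 31 of 76 were lower, beside 46.9% of all genes tested. What the title numbers stand for is not given in the labels. For the shift of the members, treatment and title-number range therefore cannot be told apart. Without vehicle 2345, 64 of 76 members were lower, the small-subunit median was -0.1, and 39 genes of the whole table passed the threshold, none of them a member.

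**Figure D4:**
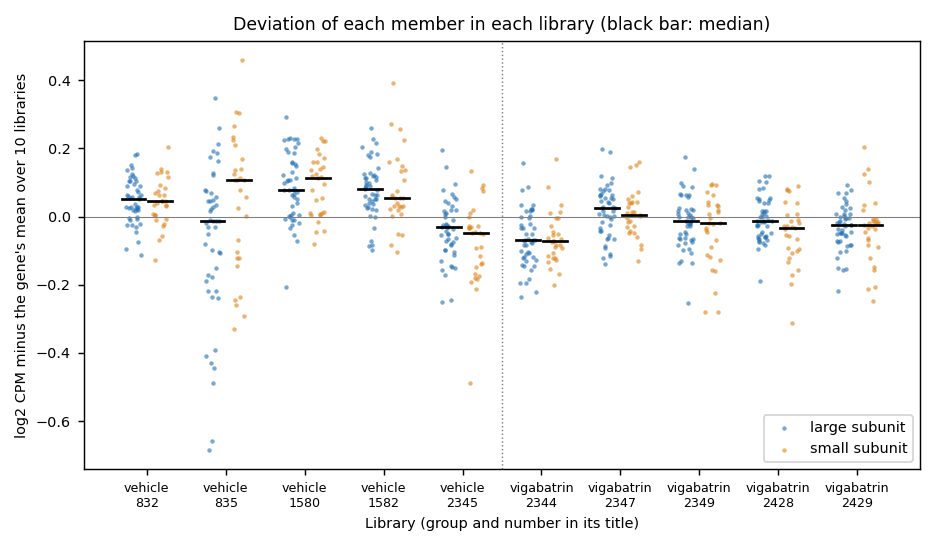
Deviation of log2 CPM from the gene's own mean over 10 libraries, for each of the 76 tested genes (blue large subunit, orange small subunit) in each library, with the median as a black bar. Vehicle 835 has the widest scatter, and the medians of vehicle 2345 lie within the range of the vigabatrin libraries.

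Vehicle 835 differed in another way: it spread genes apart, the members among them. The SD of their deviations was 0.224 there and 0.068 to 0.104 in the other libraries, and it was 0.227 after trends with gene length and GC content were removed. Genes of similar level were spread at least as widely there. Genes with a mean of 5 to 60 CPM had an SD of 0.442 in vehicle 835 and 0.212 to 0.298 elsewhere. By median absolute deviation the members were at 0.128 and those genes at 0.168 in vehicle 835. Vehicle 835 held the lowest value of 24 members and the highest of 17. Against the median of the other 4 vehicle libraries, 14 of 76 members lay below -0.3 on the log2 scale, and 2 lay above 0.3. Those below were 10 of 47 in the large and 4 of 29 in the small subunit. Matching shares over genes of similar level are not given here, so these counts cannot be read as particular to the members. The lowest were Mrpl14 at -0.81, Mrpl35 at -0.74, Mrpl36 at -0.67, Mrpl34 at -0.6 and Mrpl24 at -0.56. The highest were Mrps23 at 0.51 and Mrps18a at 0.31.

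The balance of the subunits shifted with it. The mean log2 CPM of the large-subunit members exceeded that of the small-subunit members by 0.236 in vehicle 835 and by 0.348 to 0.392 in the other 9 libraries, the vigabatrin ones included. Lens markers summed to 15418 CPM and pigment epithelium and choroid markers to 1671 CPM in vehicle 835, the latter the highest of all libraries. Vigabatrin 2344, with 15912 CPM of lens markers, had a difference of 0.348 and an SD of 0.08. The part of these markers in the spread was not tested. Without vehicle 835, the large-subunit median was -0.068 and the small-subunit median -0.058, so the order of the subunits turned. With the 4 lens-rich libraries left out the medians were -0.047 and -0.045. With terms for lens and pigment epithelium markers they were -0.049 and -0.069, with the small subunit lower. With limma-voom's quality weights they were -0.074 and -0.061. The lower median of the small subunit was thus not found without vehicle 835 or with libraries weighted by their quality.

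**Figure D5:**
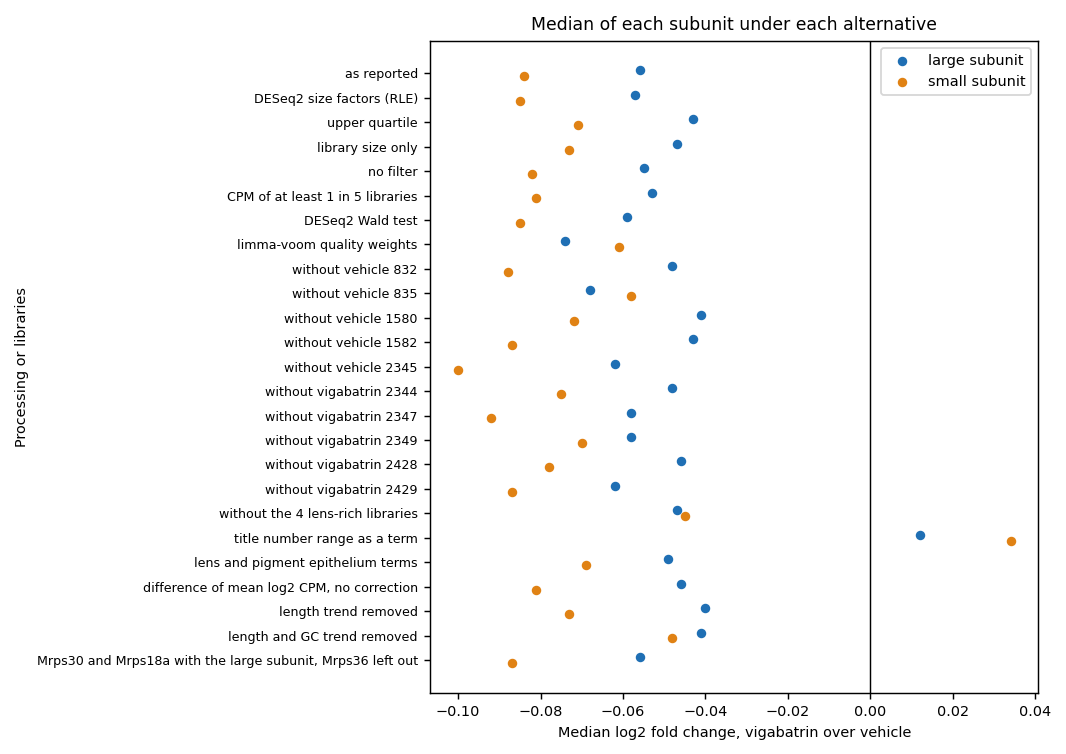
Median log2 fold change, vigabatrin over vehicle, of the large-subunit (blue) and small-subunit (orange) members under each processing alternative and without each library. With the title-number term the medians are above 0, at 0.012 and 0.034, and without vehicle 835 the order of the subunits is exchanged.

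The most variable members over all 10 libraries were Mrps6, Mrpl14 and Mrpl35, with coefficients of variation of 18.1%, 16.0% and 14.6%, beside a median of 7.36% over the members and 9.74% over all genes tested. Mrps6, a small-subunit protein with a bacterial counterpart, had 6.99, 7.3, 6.82, 8.88 and 4.83 CPM in vehicle and 7.61, 7.53, 5.58, 5.45 and 7.81 CPM after vigabatrin. Its spread came from both groups. In GENCODE M21, 10.4% of the exon bases of Mrps6 are shared with Slc5a3 on the same strand. Mrpl14 had 12.4, 7.42, 14.6, 13.6 and 11.7 CPM in vehicle and between 11.4 and 13.3 CPM after vigabatrin, so that here vehicle 835 alone stood apart.

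The neighbours of these genes in function were set beside them. Of the 6 ribosomal proteins with other names, 5 had a lower mean after vigabatrin, with a median log2 fold change of -0.078, and none passed the threshold. Chchd1 was at -0.17 (standard error 0.063), Gadd45gip1 at -0.15 (0.109), Aurkaip1 at -0.1 (0.057), Ict1 at -0.052 (0.047), Dap3 at -0.02 (0.042) and Ptcd3 at 0.001 (0.049). With the title-number term Chchd1 was at -0.002 and Aurkaip1 at -0.007, and without vehicle 835 Aurkaip1 was at -0.055. Factors that assemble the ribosome were lower for 18 of 24 genes, with a median of -0.051. Rbfa, which matures the small subunit, went from 13.1 ± 1.79 to 11.4 ± 0.29 CPM (SD, n = 5 each), and its adjusted p was 0.666 by edgeR. Its groups narrowly did not overlap, with 11.9 CPM in vehicle 1582 and 11.8 CPM in vigabatrin 2344. Such a gap was found for 1 of the 24 genes, beside 1.48% of all genes tested. Its log2 fold change was -0.198, and -0.108 without vehicle 835, which held 16.2 CPM beside 11.9 to 12.7 in the other vehicle libraries. Mettl17 was at -0.099 and, on the other side, Fastkd2 at 0.082 and Mtg2 at 0.067. Translation factors did not lean that way, with 5 of 12 lower and a median of 0.019. Among them Guf1, an elongation factor homologue, went from 59.1 ± 4.06 to 64.4 ± 2.51 CPM (SD, n = 5 each). The log2 fold change of Guf1 was 0.122 (edgeR, adjusted p = 0.644). It was 0.082 without vehicle 835, its lowest library at 52.5 CPM. Mtrf1, a release factor homologue, was at 0.085, and the initiation factors Mtif3 and Mtif2 were at -0.11 and -0.073.

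Genes of mitochondrial DNA expression and mitochondrial biogenesis likewise had 5 of 12 lower and a median of 0.018. Ppargc1b, a transcriptional coactivator of mitochondrial genes, had the smallest p of them: 75.6 ± 8.4 CPM in vehicle and 63.1 ± 2.82 after vigabatrin, a log2 fold change of -0.26 (edgeR, adjusted p = 0.489). Without vehicle 835, its highest library at 89.0 CPM, the value was -0.196. Tfam, which packages mitochondrial DNA, was at -0.13, and at -0.053 without vehicle 835. Gabpa, the DNA-binding subunit of the ETS-family factor GABP (also called NRF2), was at 0.103, and at 0.054 without vehicle 835. The nuclear receptor Esrra was at 0.076. Cytosolic ribosomal proteins had 69 of 82 genes lower with a median of -0.043, and complex I subunits 32 of 37 with a median of -0.056. Rod markers had 7 of 8 lower with a median of -0.077, and their part in the shift of the members was not tested. All these medians come from the same 10 libraries as that of the members. The mitochondrial ribosomal RNAs were not analysed here.

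Promoters were read from RefSeq (GRCm38.p6) as windows of 250 bases before and 50 bases after a gene's start, with 74 windows for 68 of the 77 members. NRF1 and GABP are factors known to bind promoters of nuclear genes for mitochondrial proteins. The ETS letters CCGGAAG, searched on both strands as were all motifs, stood in 33.8% of the members' windows, beside 14.5% of windows of tested genes and 8.86% of all windows. Windows of cytosolic ribosomal protein genes held them in 36% and those of complex I genes in 11.8%. The NRF1 letters, GCGC and TGCGC with any letter between them, stood in 17.6% of members' windows, 8.32% of tested genes' and 4.6% of all. With A between them, a subset of these, the shares were 4.05%, 1.76% and 0.971%. The YY1 letters AAGATGGCG stood in 10.8%, 2.41% and 1.4%. The GC box GGGCGG did not show this order, with 52.7% of members' and 58.3% of tested genes' windows, nor did the TATA box TATAAA, with 6.76% and 7.59%. The median GC content was 58.5% in members' windows, 60% in tested genes' and 52.7% in all. The median count of C followed by G was 21.5, 19.0 and 7.0 per window in the same order. The part of composition in the shares of letters was not tested. A match is a description of letters and not a bound site.

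Promoter stretches of 5 members are shown because they hold these letters beside genes described above, and they were chosen after the matches were seen. Capitals mark the ETS or NRF1 letters, each stretch reads in the direction of its gene, and it ends at or before base -1, the base before the RefSeq start. Mrpl22, the member of largest change, has ETS letters from base -53 at chr11:58171511-58171660 (plus strand). Mrps22, with a higher mean after vigabatrin, has them from base -11 at chr9:98601680-98601829 (minus strand). Mrps27 has them on the opposite strand from base -48 at chr13:99344706-99344785 (plus strand). Mrpl9 holds the NRF1 letters with A from base -28 at chr3:94443168-94443317 (plus strand), and Mrpl12 with another letter from base -81 at chr11:120484463-120484612 (plus strand).
Mrpl22: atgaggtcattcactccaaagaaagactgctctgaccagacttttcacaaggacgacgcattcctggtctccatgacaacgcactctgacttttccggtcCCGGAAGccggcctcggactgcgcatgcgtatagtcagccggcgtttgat
Mrps22: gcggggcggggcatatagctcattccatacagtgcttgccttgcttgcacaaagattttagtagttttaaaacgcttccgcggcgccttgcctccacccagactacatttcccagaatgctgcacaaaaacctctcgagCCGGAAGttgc
Mrps27: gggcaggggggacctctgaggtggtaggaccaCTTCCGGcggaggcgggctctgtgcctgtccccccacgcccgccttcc
Mrpl9: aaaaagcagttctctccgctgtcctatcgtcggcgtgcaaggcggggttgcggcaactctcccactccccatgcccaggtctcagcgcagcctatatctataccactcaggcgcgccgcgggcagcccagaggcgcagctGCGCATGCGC
Mrpl12: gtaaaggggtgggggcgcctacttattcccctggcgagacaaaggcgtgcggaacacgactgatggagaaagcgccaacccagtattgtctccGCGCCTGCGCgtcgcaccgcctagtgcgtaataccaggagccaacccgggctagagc

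Mrpl22 and Mrps22 thus carry the same letters, with log2 fold changes of -0.28 ± 0.091 and 0.067 ± 0.063 (standard error). Whether the letters go with the fold changes of the members was not tested. The stretch of Mrps27 lies between a pair of starts, since Ptcd2 starts 81 bases away on the other strand. Such head-to-head starts of protein-coding genes, within 1000 bases or overlapping by up to 500, were found for 26 of 76 members (34.2%) and for 12.8% of tested protein-coding genes. The limit of 500 was set after seeing the data. With 200 the shares were 30.3% and 10.7%.

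Some partners belong to the same processes. Mrpl46 and Mrps11, a large- and a small-subunit gene, start head to head on chromosome 7. Their GENCODE starts lie 412 bases past each other, and 12.2% of the exon bases of Mrpl46 and 8.0% of those of Mrps11 are shared. Their log2 fold changes were -0.073 and -0.015. Mrpl36 faces the complex I gene Ndufs6, Mrps12 the mitochondrial seryl-tRNA synthetase gene Sars2, Mrpl49 the cytosolic ribosomal protein gene Fau, and Mrpl32 the proteasome gene Psma2. Some partners had like levels and others did not. Sars2 stood at 12.3 CPM per kilobase and Mrps12 at 15.9, Mrps11 at 16.1 and Mrpl46 at 12.8. Ndufs6 stood at 50.3 CPM per kilobase and Mrpl36 at 11.7, Fau at 186 and Mrpl49 at 33.4. In vehicle 835, where Mrpl36 was low at 7.42 CPM, Ndufs6 had 28.5 CPM, inside its range over the other vehicle libraries of 27.9 to 30.1 CPM, so the low value was not shared by the partner.

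The members lie on 17 chromosomes, with 10 on chromosome 11 and 8 on chromosome 17 of the mouse genome. Their deposited gene lengths had a median of 1408 bases beside 2922 over all genes tested.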

How the data were processed

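RNA of 10 mouse retina libraries was measured by sequencing. The authors deposited raw read counts per Ensembl gene with gene lengths, for which the submitters' processing notes name HTSeq 0.6.1, build mm10, DESeq2 and edgeR 3.16.5. The sources used here do not give the aligner, the annotation release or the strand setting, and reads from genes that overlap cannot be told apart. Groups follow the treatment label, and 1 column that matches no sample was left out. After filterByExpr and TMM scaling, edgeR 4.0.16 (R 4.3.3) fitted group as the only term in its quasi-likelihood test, with Benjamini-Hochberg adjustment over 17435 genes and a threshold of 0.05. CPM uses TMM library sizes. Standard errors were taken as fold change (log2) over the root of F, with a median of 0.088 over all genes, and it sets the precision. In counts simulated with known changes, the test recovered 2% of changed genes at 1.25-fold and 45.8% at 1.5-fold. At 2-fold it recovered 77.1% and at 3-fold 91.8%, with 6 false calls. The changed genes were drawn from all genes tested, with counts independent between genes and libraries. These rates are therefore not specific to the members.

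The members and lists were chosen with earlier results of these data known. Genes named were the 5 of smallest p per direction and subunit, the 5 of highest and of lowest level, the 3 of largest variation, stalk proteins and S18 paralogs, Mrps30 and Mrps36, genes not tested, all ribosomal proteins with other names and the 2 of smallest p per direction of each other list. Genes of the cytosolic ribosome and complex I lists and of the marker lists are given by counts only. Mrpl24, Mrpl36, Mrps23, Mrpl9, Mrps27 and the genes sharing starts or exons were named after their values were seen. The division by the number in the symbol was also made after values were seen. GENCODE M21 (76 of 77 members, all at the deposited coordinates; Mrpl33 has no entry) gave exons, and RefSeq GRCm38.p6 gave promoters. Of the names fixed for assembly factors, which included old and new symbols, 24 genes were in the table. Alternatives covered scaling (DESeq2 1.42.0 size factors, upper quartile, library size), filters, DESeq2 and limma-voom (limma 3.58.1), each library left out, the 4 lens-rich libraries left out, terms for title number or for lens and pigment epithelium markers, and loess trends (span 0.3) with length and GC content. The difference of mean log2 CPM without correction was added after seeing the data.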

Additional observations from a re-analysis of the deposited data

Results flagged for a closer look

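In groups of 5 libraries, a highest or lowest value was singled out where its gap to the next value took up more than Dixon's critical share of the range. This held for 10 of 108 groups examined, and 8 of the 10 were in vehicle 835 or vehicle 2345. The figure of 5.4 by chance holds for independent groups not chosen by their values. Most genes here were named by their values in these same libraries, so the count cannot be set against it. Vehicle 835 was lowest for Mrpl35 at 7.02 CPM (others 11.1 to 12.7), Mrpl28 at 24.9 CPM (33.3 to 35.1) and Mrpl45 at 18.4 CPM (24.8 to 26.8). It was highest for Mrps35 at 14 CPM (11.4 to 12.0), Rbfa at 16.2 CPM (11.9 to 12.7) and Tfam at 27.3 CPM (21.1 to 21.6). Its difference between the large- and small-subunit means of log2 CPM, 0.236, lay below the 0.35 to 0.39 of the other vehicle libraries. Vehicle 2345 had the lowest small-subunit mean, 3.834 beside 3.955 to 4.0. Among vigabatrin libraries, Mrpl28 was highest in 2349 at 34.7 CPM (32.7 to 33.1), and Guf1 was lowest in 2344 at 60 CPM (64.4 to 66.1).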

How the results depend on the processing

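No paired analysis was possible because the groups share no replicate number. In every fit 0 members passed the threshold. The median log2 fold changes of all members, of the large and of the small subunit were below 0 under each alternative except the title-number term. There they were 0.028, 0.012 and 0.034, the difference between subunits was -0.023 and 31 members were lower. Leaving out libraries gave 54 to 66 lower members. Over all genes, 1 passed as reported. DESeq2 called 85 and limma-voom 3, leaving out 1 library gave 0 to 39 (39 without vehicle 2345), and 0 passed with library-size scaling, without the filter, without the lens-rich libraries, with the title-number term and with the lens and pigment epithelium terms. The cause of these changes was not tested. Of 840 values for 42 named genes, 57 had the opposite sign, and 18 genes kept their sign throughout. Keeping the sign with the title-number term did not mean keeping the size. In that fit Mrpl22 was at -0.112, Mrpl38 at -0.073, Mrpl44 at -0.009, Mrps18b at -0.076 and Mrps34 at -0.099. Chchd1 was at -0.002, Aurkaip1 at -0.007, Ict1 at -0.034, Mrpl45 at 0.027, Mtg2 at 0.01 and Tfam at -0.047. Each of these was over 1.5 times nearer to 0 than as reported. Mrpl45 and Mtg2 are not among the 18 genes, since without vehicle 835 they were at -0.005 and -0.013. With the title-number term, which leaves vehicle 2345 as the one control, the log2 fold change was 0.029 for Dap3, -0.005 for Esrra, 0.027 for Mettl17, -0.015 for Mrpl10, 0.059 for Mrpl12, 0.009 for Mrpl2, 0.081 for Mrpl20, -0.039 for Mrpl28, -0.139 for Mrpl35, 0.069 for Mrps18a, 0.048 for Mrps18c, 0.066 for Mrps26, 0.034 for Mrps33, 0.492 for Mrps6, 0.034 for Mrps9, 0.087 for Mtif2, -0.06 for Mtrf1 and -0.029 for Ptcd3. With limma-voom quality weights it was -0.084 for Mrpl14, -0.011 for Mrpl28, -0.024 for Mrps17, -0.048 for Mrps36 and -0.029 for Ptcd3. Without the 4 lens-rich libraries it was -0.106 for Mrpl14, -0.033 for Mrpl28, -0.006 for Mrpl35, -0.066 for Mrps17, -0.042 for Mrps36, -0.037 for Mtg2 and -0.035 for Ptcd3. With terms for lens and pigment epithelium markers it was -0.012 for Mrps17, 0.057 for Mrps6 and -0.004 for Ptcd3. With upper-quartile scaling it was 0.00096 for Mrps18c. With 1 library left out, the values crossed 0 for these genes, with ranges of -0.039 to 0.008 for Dap3, -0.096 to 0.118 for Mrpl14, -0.034 to 0.078 for Mrpl28, -0.035 to 0.148 for Mrpl35, -0.005 to 0.116 for Mrpl45, -0.043 to 0.045 for Mrps17, -0.038 to 0.017 for Mrps18c, -0.014 to 0.048 for Mrps30, -0.038 to 0.085 for Mrps36, -0.142 to 0.063 for Mrps6, -0.013 to 0.107 for Mtg2 and -0.033 to 0.029 for Ptcd3. Removing length and GC trends gave a median of -0.043 over the members, beside -0.054 for the same difference uncorrected. A median standard error of 0.071 for the members limits what single genes can show.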
